A study of Mus musculus with 6 samples.

Results

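The Ikaros family is a group of 5 zinc finger transcription factors, Ikaros (Ikzf1), Helios (Ikzf2), Aiolos (Ikzf3), Eos (Ikzf4) and Pegasus (Ikzf5), and its members were taken here as every array probe annotated to these gene symbols. The annotation named 12 probes of 45281, which belonged to 4 of the 5 genes. No probe is named Ikzf4 in the annotation used here, so Eos was not analysed here. Of the 12 probes 10 were above background on at least 2 arrays, and all 4 genes with a probe were among the 9593 genes tested, out of 19057 genes with a probe. RNA was from pTreg cells, regulatory T cells that had arisen from naive cells after transfer, and was hybridized to Illumina MouseWG 6v2 bead arrays, 3 with Blimp1-deficient (CKO) cells and 3 with Blimp1-sufficient (Ctrl) cells. The comparison asks how the family differed where Blimp1, the transcriptional repressor encoded by Prdm1, had been deleted in T cells.

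CKO donors were C57BL/6 Prdm1 flox/flox CD4-Cre+ mice (Blimp1CKO) and Ctrl donors were Prdm1+/+ CD4-Cre+ mice, so both groups carried the Cre transgene. CD4-Cre deletes from the thymic stage in all T cells that pass through CD4 expression, so that the deletion preceded the conversion to Treg cells. Naive CD4+ CD44low CD25- Foxp3-GFP- cells were pooled from the spleen and lymph nodes of donors aged 8 to 10 weeks, and Thy1.2+ CKO and Thy1.1+ Ctrl cells were injected together in equal numbers into C57BL/6 RAG1-/- hosts, which lack T and B cells of their own. CD4+ Foxp3-GFP+ cells were sorted 6 to 8 weeks later, and their RNA was amplified before hybridization. One field of the labels says iTreg and another says peripheral Treg, and the letters P+I stand in the labels of replicates 2 and 3 of both groups, while those of replicate 1 name no stimulus. The arrays of replicate 1 shared a slide and those of replicates 2 and 3 another, so that each slide held both groups. Slide and the P+I label fall together and cannot be told apart.

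Ikaros family proteins bind DNA through zinc fingers near their amino terminus and pair with one another through zinc fingers at the other end, so that the members of a cell can form mixed complexes. They recruit chromatin remodelling and deacetylase complexes, above all the NuRD complex, and silence or activate genes during lymphocyte development. In T cells, Ikaros and Helios take part in the silencing of Il2, Helios marks most Treg cells that arise in the thymus and is also found on activated T cells, Aiolos is known from Th17 and Treg cells, where it takes part in silencing Il2, and Eos is a partner of Foxp3. Pegasus is the most distant member and its role in Treg cells is less known.

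RefSeq transcription start windows (GRCm38.p6) were given for 2 of the 5 members, Ikzf1 and Ikzf5, and for Prdm1. The 250 bases before both Ikzf1 starts are shown because they are the entry points of the founding member, at chr11:11685675-11685924 and chr11:11689927-11690176 on the plus strand, and those before the Prdm1 start, at chr10:44458749-44458998 on the minus strand, because Prdm1 is the gene by which the groups differ. All are written 5′ to 3′ along the gene. Capitals mark the letters TGGGAA on either strand, the only form of the sequence recognised by Ikaros proteins that was searched. Other or shorter forms, such as GGGAA, were neither searched nor marked.
Ikzf1, upstream start: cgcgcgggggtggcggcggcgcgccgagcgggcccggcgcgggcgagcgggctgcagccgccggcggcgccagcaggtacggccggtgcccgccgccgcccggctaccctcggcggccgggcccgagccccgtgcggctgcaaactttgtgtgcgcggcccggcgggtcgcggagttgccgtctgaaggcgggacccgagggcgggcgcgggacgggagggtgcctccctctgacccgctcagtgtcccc
Ikzf1, downstream start: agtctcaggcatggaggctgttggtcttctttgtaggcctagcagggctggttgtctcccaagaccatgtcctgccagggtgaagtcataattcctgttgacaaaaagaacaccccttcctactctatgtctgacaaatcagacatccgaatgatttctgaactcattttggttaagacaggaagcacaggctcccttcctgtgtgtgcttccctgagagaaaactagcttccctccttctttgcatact
Prdm1: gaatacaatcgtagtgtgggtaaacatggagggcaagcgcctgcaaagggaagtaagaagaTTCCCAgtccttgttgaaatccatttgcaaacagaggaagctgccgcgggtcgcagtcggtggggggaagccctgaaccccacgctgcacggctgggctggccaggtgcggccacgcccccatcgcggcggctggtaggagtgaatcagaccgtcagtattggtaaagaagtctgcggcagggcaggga
The Ikzf1 windows differed in composition, with 82% G and C before the upstream start and 47.6% before the downstream start. The letters TGGGAA, searched on both strands, were found once in the Prdm1 window and not in the Ikzf1 or Ikzf5 windows. The match lies on the opposite strand and is printed as TTCCCA, whose first printed base is 189 bases before the start. In 300-base windows around starts, which reach 50 bases further, these letters occurred in 25.6% of all 32851 windows. GTGAAAG, the only form of the Blimp1 core sequence that was searched, was found in none of the Ikzf1, Ikzf5 and Prdm1 windows and in 4.24% of all. A match describes the letters only, and no binding was measured.

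Of the 9593 genes, 11 were higher and 15 lower in CKO than in Ctrl cells at an adjusted p under 0.05 from limma, the rule for the words rose and fell, and 712 (7.42%) met the thresholds of the study, at least 1.5-fold with an unadjusted p under 0.05. Of 5 measured T cell markers 4 were above background on all 6 arrays and Cd5 on 1, with summed intensities of 10480 to 14620 in CKO and 14730 to 21760 in Ctrl. Of the CD8 genes Cd8a was at background on all 6 arrays and Cd8b1 above it on all 6, at 544 to 934 in CKO and 656 to 1031 in Ctrl. Foxp3, the gene behind the sort, gave 433, 165 and 216 in CKO replicates 1, 2 and 3 and 480, 212 and 141 in the Ctrl replicates, which overlapped. The 5 measured Treg markers summed to 15800 to 19340 in CKO and 25940 to 33110 in Ctrl. Prdm1 had 561, 341 and 704 in CKO and 18.9, 50.9 and 49.2 in Ctrl, but no source used here places its probe inside or outside the deleted part, and its level is no check of the deletion. Of 6 B cell markers, none was above background on all arrays and Cr2 was at background on each. The 9 myeloid markers summed to 1798 to 22810 in CKO and 2541 to 32810 in Ctrl, with replicate 2 lowest in both groups and Adgre1 and Itgam at background throughout. Of 4 measured erythroid markers 3 were above background on all 6 arrays. The 4 summed to 2316 to 6511 in CKO and 2141 to 7875 in Ctrl, again with replicate 2 lowest in both groups.

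Of the 4 members tested, 2 met the study's thresholds, both lower in CKO than in Ctrl pTreg cells, where 4.34% of all genes did so. These were Helios and, on its brightest probe, Aiolos, and only Helios did not overlap between the groups. Ikaros and Pegasus did not meet the thresholds. Without a block none of the 4 reached an adjusted p under 0.05 in limma, which 0.156% of all genes did as lower. An unadjusted p under 0.05 from limma was found for 2 of the 4 and for 773 of all 9593 genes. With the replicate number as a block Ikzf3 passed, where 1.16% of all genes passed as lower and 1.91% in either direction. Helios and Aiolos were both lower in each of the 3 pairs of CKO and Ctrl arrays, as were 18.1% of all genes. In RNA of sorted cells, fewer cells that express a gene and less RNA of it per cell cannot be told apart.

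**Figure D1:**
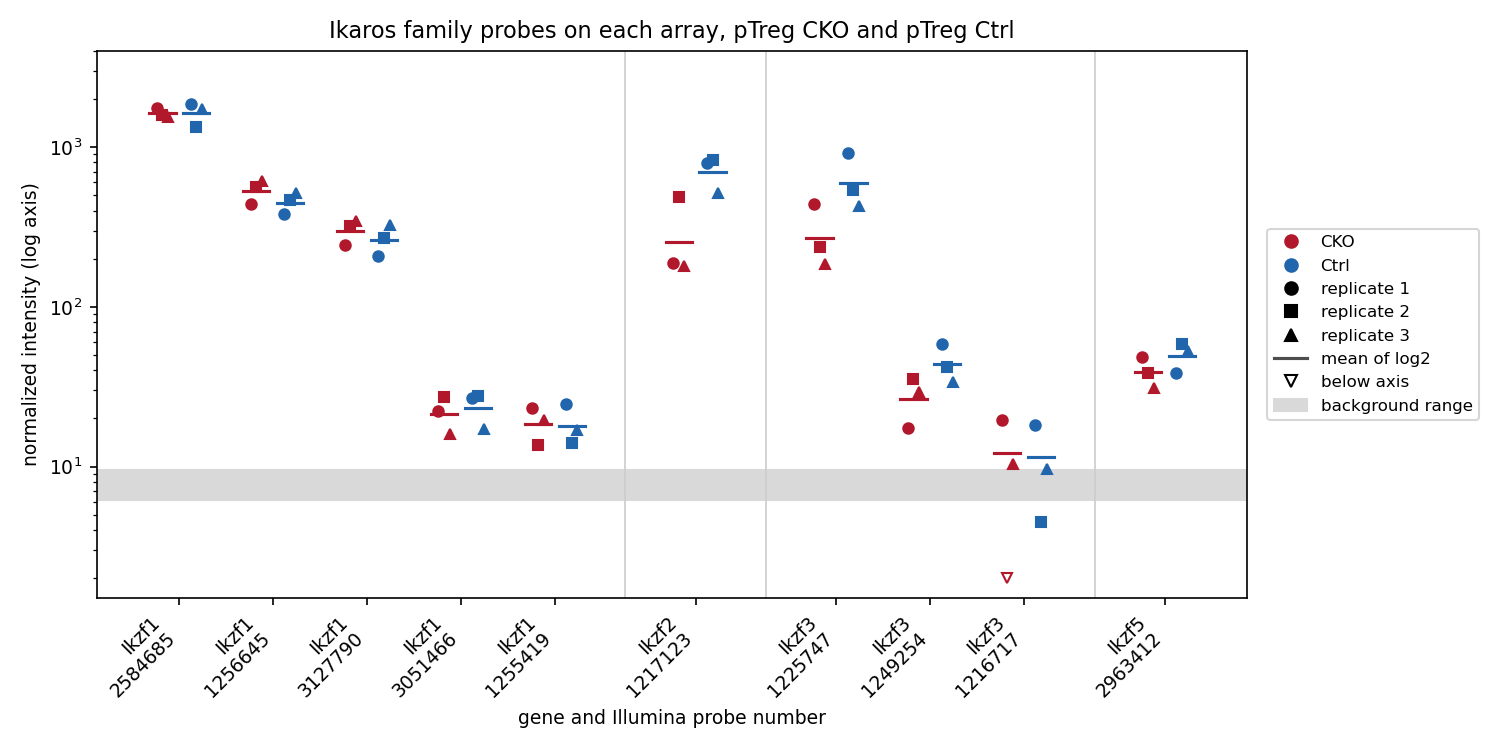
Normalized intensity (log axis) of the 10 Ikaros family probes above background on at least 2 arrays, with CKO in red left of Ctrl in blue, a symbol per replicate and bars at the mean of log2 values. Background levels of the arrays (6.18 to 9.55) are drawn as a grey band. The 3 CKO values of Ikzf2 (181 to 490) lie below its 3 Ctrl values (511 to 834), and the open triangle stands for a value of -0.86 in CKO replicate 2 of an Ikzf3 probe.

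Helios is encoded by Ikzf2 on chromosome 1 and was measured by a single probe. Its normalized intensity was 187, 490 and 181 in CKO replicates 1, 2 and 3, and 792, 834 and 511 in Ctrl replicates 1, 2 and 3. Replicate 2 was the highest in both groups, and the groups did not overlap, since the highest CKO value of 490 lay just under the lowest Ctrl value of 511, as was the case with CKO lower for 7.08% of all genes. The means were 286 ± 177 in CKO and 713 ± 175 in Ctrl (SD, n = 3 each). From means of log2 values Ikzf2 was 2.73-fold lower in CKO, a log2 fold change of -1.45 with a standard error (SE) of 0.42 and a 95% confidence interval of -2.43 to -0.48. Limma gave an unadjusted p of 0.00904 and an adjusted p of 0.309 over all genes, and 0.751% of the genes tested had a lower log2 fold change. The change was -2.08 in the pair of replicate 1, -0.77 in that of replicate 2 and -1.50 in that of replicate 3, so that its size differed between pairs more than for Aiolos. On slide 1 the single pair gave -2.08, and on slide 2 the other two pairs gave -1.14 (unadjusted p = 0.102 from limma), which no longer met the thresholds. The myeloid markers summed to 12730, 1798 and 22810 in CKO and 23490, 2541 and 32810 in Ctrl replicates 1, 2 and 3, so that these sums, in which S100a8 and S100a9 weigh most, were lower in CKO in each pair and lowest in replicate 2. In the pair of replicate 2, however, Cd14 (43.1 in CKO and 21.8 in Ctrl), Fcer1g (145 in CKO and 92.6 in Ctrl), Lyz2 (60.3 in CKO and 29.1 in Ctrl) and Tyrobp (12.4 in CKO and 8.13 in Ctrl) were higher in CKO. Their part in the Helios values was not tested, and neither was that of the Treg markers, whose sums were lower in CKO without overlap. In these sums Tnfrsf4 weighed most (10490 to 13220 in CKO and 15840 to 19070 in Ctrl). Tnfrsf4, Ctla4 and Tnfrsf18 did not overlap between the groups, while Foxp3 and Il2ra did. The sums of the general T cell markers were also lower in CKO without overlap (10480 to 14620 in CKO and 14730 to 21760 in Ctrl).

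Aiolos, encoded by Ikzf3 on chromosome 11, was measured by 3 probes, of which the brightest stood for the gene. On this probe the intensity was 437, 237 and 185 in CKO replicates 1, 2 and 3 and 912, 536 and 428 in Ctrl replicates 1, 2 and 3. Replicate 1 was the highest and replicate 3 the lowest in both groups, and the groups overlapped only in that CKO replicate 1 (437) exceeded Ctrl replicate 3 (428). The means were 286 ± 133 in CKO and 625 ± 254 in Ctrl (SD, n = 3 each), which made Ikzf3 2.22-fold lower in CKO from means of log2 values. Its log2 fold change was -1.15, with an SE of 0.40 and a 95% confidence interval of -2.08 to -0.22. Limma gave an unadjusted p of 0.0216 and an adjusted p of 0.436. Within pairs the change was nearly constant, at -1.06, -1.18 and -1.21 in the pairs of replicates 1, 2 and 3, and with the replicate number as a block the adjusted p was 0.0346 from limma. Of all genes tested, 1.67% had a lower log2 fold change. On slide 1 the single pair gave -1.06 and on slide 2 the other two pairs gave -1.20 (unadjusted p = 0.00836 from limma). Leaving out 1 array at a time gave -1.51 to -0.84, and Ikzf3 missed the thresholds without CKO replicate 2, CKO replicate 3 or Ctrl replicate 1.

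The other Aiolos probes did not repeat this size. ILMN_1249254 had 17.5, 35.3 and 29.5 in CKO and 58.4, 42.3 and 33.8 in Ctrl, with overlap between CKO replicate 2 and Ctrl replicate 3 and pair values of -1.74, -0.26 and -0.20. The log2 fold change of this probe was -0.73 (SE 0.34, limma adjusted p = 0.701 over 17294 probes). ILMN_1216717 lay at the edge of background, above it on replicates 1 and 3 and at it on replicate 2 of each group, with 19.4, -0.86 and 10.3 in CKO and 18.2, 4.51 and 9.65 in Ctrl and a log2 fold change of 0.089 (SE 0.39). Taken over all 3 probes by the mean of log2 values, Ikzf3 had a log2 fold change of -0.60 (adjusted p = 0.674 from limma) and did not meet the thresholds. The sources used here give no probe positions along the transcript. In the probe-wise fit with the replicate block the brightest Aiolos probe had an adjusted p of 0.0562, against 0.0346 in the gene-wise fit.

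**Figure D2:**
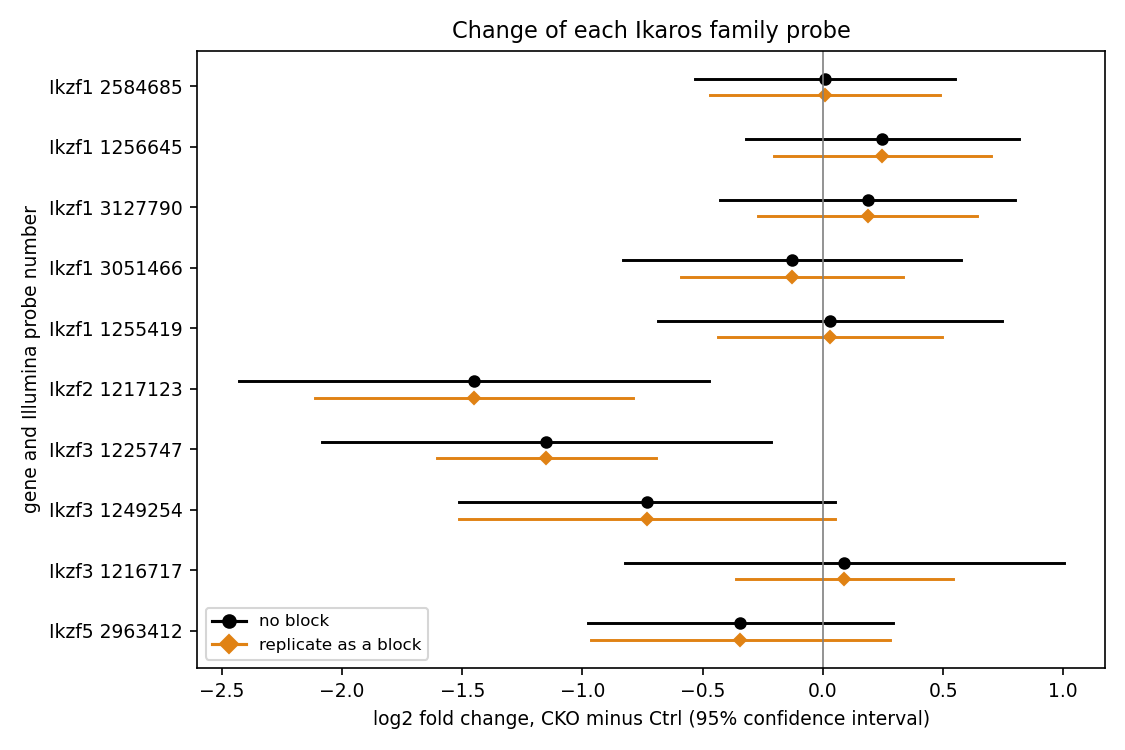
Log2 fold change, CKO minus Ctrl, of the 10 kept Ikaros family probes with 95% confidence intervals from limma, fitted over 17294 probes, without a block (black) and with the replicate number as a block (orange). The intervals of the Ikzf2 probe and of the brightest Ikzf3 probe lie below 0 in both fits, and those of the 8 other probes include 0.

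Ikaros, encoded by Ikzf1 on chromosome 11, was measured by 6 probes, 5 of them above background on all arrays and 1 (ILMN_2569464) below it on each. The brightest gave 1764, 1591 and 1547 in CKO replicates 1, 2 and 3 and 1868, 1330 and 1717 in Ctrl replicates 1, 2 and 3. The lowest and the highest value were both from Ctrl cells, and the CKO values lay between them. The means were 1634 ± 115 in CKO and 1639 ± 278 in Ctrl (SD, n = 3 each), with a log2 fold change of 0.0084 and a 95% confidence interval of -0.52 to 0.53 (adjusted p = 0.997 from limma). A change of Ikzf1 within these bounds could not be told apart from none in this fit, which had 3 arrays a group and no block.

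The next Ikaros probe, ILMN_1256645, had 440, 558 and 611 in CKO and 379, 464 and 512 in Ctrl. It was higher in CKO in every pair, by 0.22, 0.27 and 0.26 on the log2 scale, but the groups overlapped and its log2 fold change of 0.25 (SE 0.25) had an adjusted p of 0.942 from limma. ILMN_3127790 had 244, 318 and 343 in CKO and 208, 268 and 324 in Ctrl, a log2 fold change of 0.19 (SE 0.27). These probes ordered the 6 arrays nearly alike, with a Pearson r of 0.967 between them, whereas the brightest probe had an r of -0.43 and -0.42 with them. The dim probes ILMN_3051466 and ILMN_1255419 gave -0.13 (SE 0.30) and 0.031 (SE 0.31) on the log2 scale, with intensities between 13.7 and 27.8 on the 6 arrays. When the change was compared within arrays over the 10 pairs of Ikaros probes, two-sided exact permutation p-values were 0.5 to 1.

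Pegasus, encoded by Ikzf5 on chromosome 7, was measured by 1 probe above background and 1 (ILMN_1215504) below it on all arrays. Its intensity was 48.6, 38.5 and 31.2 in CKO replicates 1, 2 and 3 and 38.7, 58.4 and 52.7 in Ctrl replicates 1, 2 and 3. CKO was higher in the pair of replicate 1 and lower in the other pairs, at 0.33, -0.60 and -0.76 on the log2 scale, and the groups overlapped. The means were 39.4 ± 8.71 in CKO and 49.9 ± 10.1 in Ctrl (SD, n = 3 each), with a log2 fold change of -0.34 (SE 0.27, 95% confidence interval -0.97 to 0.28, adjusted p = 0.881 from limma). Within slide 2 alone it was -0.70 with an unadjusted p of 0.0448 (adjusted p = 0.705 from limma). This met the thresholds, as did 611 of 8773 genes there.

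**Figure D3:**
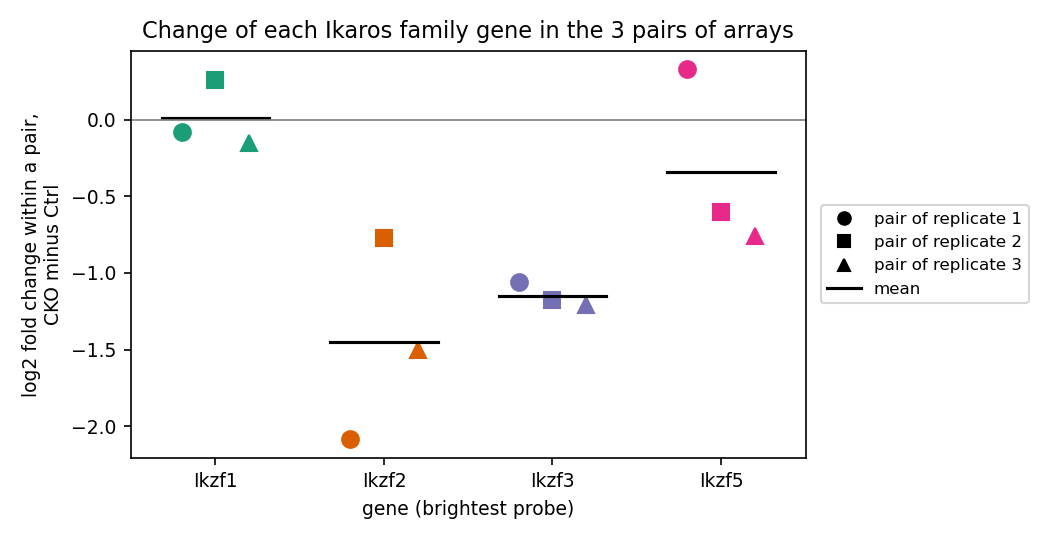
Log2 fold change within each pair of arrays of a replicate number, CKO minus Ctrl, for the brightest probe of each measured Ikaros family gene, with a symbol per pair and a bar at the mean. The 3 Ikzf3 values lie between -1.21 and -1.06, those of Ikzf2 spread between -2.08 and -0.77, and those of Ikzf1 and Ikzf5 lie on both sides of 0.

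Because members share partners, the difference between each 2 of them was also taken within arrays, which removes anything that scales a whole array, and compared between groups over 6 pairs of members. The differences depend on the probes and rank no gene above another. The log2 difference of Ikaros minus Helios was 3.24, 1.70 and 3.10 in CKO and 1.24, 0.67 and 1.75 in Ctrl, so that only the CKO value of replicate 2 lay within the Ctrl range, and it averaged 1.46 higher in CKO. That of Ikaros minus Aiolos was 2.01, 2.75 and 3.07 in CKO and 1.04, 1.31 and 2.01 in Ctrl, and averaged 1.16 higher in CKO. The groups did not overlap, but only barely, with 2.013 in CKO replicate 1 and 2.005 in Ctrl replicate 3. The two-sided exact permutation p was 0.2 and 0.1, where 0.1 is the smallest possible, and 0.3 for both after Benjamini-Hochberg adjustment over the 6. This test takes no account of the pairs, within which Ikaros minus Helios was higher in CKO by 2.0, 1.03 and 1.35 and Ikaros minus Aiolos by 0.98, 1.44 and 1.06 for replicates 1, 2 and 3. Helios minus Aiolos differed by -0.30 between groups (p = 0.8 in the same exact test), with values of -1.23, 1.05 and -0.031 in CKO that enclosed the Ctrl values of -0.20, 0.64 and 0.26. Whether Helios and Aiolos differed in their change was thus not resolved by 3 arrays a group.

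Over the 6 arrays the brightest Aiolos probe followed Klrg1, an inhibitory receptor of late effector and Treg cells, most closely of 7075 genes above background on all arrays, with a Pearson r of 0.998 on log2 values. Klrg1 had intensities of 423, 224 and 161 in CKO and 1025, 599 and 434 in Ctrl, in the same order over arrays as Aiolos except that CKO replicate 1 and Ctrl replicate 3 changed places. Wbp1l and Capn2, a calpain protease subunit, followed with r of 0.989 and 0.986, and for Capn2 the log2 fold changes of its 5 probes ranged from -0.94 to 0.18. Helios was most like Stap1, a signalling adaptor (r = 0.997), Oas1g, an interferon-induced gene (r = 0.991), and Dbndd2 (r = 0.981). Stap1 had 278, 566 and 263 in CKO and 820, 772 and 550 in Ctrl, with replicate 2 highest in CKO as for Helios. Ikaros was most like Trim11, a ubiquitin ligase gene (r = 0.983), the inhibitory receptor gene Lilrb4a and the sphingomyelin synthase gene Sgms2, and Pegasus was most like Man2b2, a mannosidase gene (r = 0.992), Prmt5 and Ube3b. Helios and Aiolos correlated with each other at 0.635, which placed Aiolos at rank 803 of the genes most like Helios. All these correlations rest on 6 arrays of 2 groups and 2 slides, in which any genes that share a group difference correlate, and they are given as a description.

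Genes of the complexes through which the family acts on chromatin were read from lists. Of 14 NuRD genes 11 were measured, of which 1 met the thresholds, as lower, and limma's adjusted p was under 0.05 for none, where 4.34% of all genes met the thresholds as lower, and the list median log2 fold change was 0.10 beside 0.018 over all genes tested. With the replicate block, where 12% of all genes met the thresholds in either direction, 2 of the 11 did. The second was Rbbp7, a histone-binding subunit named here after its values were seen, with 612, 457 and 372 in CKO and 455, 239 and 146 in Ctrl (log2 fold change 0.90, SE 0.42, limma adjusted p = 0.66). Mta3, a NuRD subunit, was the lower one, with 216, 173 and 176 in CKO and 377, 366 and 399 in Ctrl. Its log2 fold change was -1.02 (SE 0.21, limma adjusted p = 0.146), without overlap, as with CKO lower for 7.08% of all genes. Mbd3, another subunit named after its values were seen, did not overlap with CKO higher, as for 5.95% of all genes. It had 248, 267 and 248 in CKO and 206, 222 and 203 in Ctrl (log2 fold change 0.27, SE 0.20, limma adjusted p = 0.865). A dimmer Mta3 probe had -0.73 (SE 0.47). Hdac2, a deacetylase of the complex, had 691, 661 and 944 in CKO and 531, 817 and 803 in Ctrl, which overlapped. Of 21 genes of the Sin3 and CtBP corepressors 15 were measured and 2 were lower at the thresholds (4.34% of all genes), with a median of -0.042. Arid4a, a Sin3-associated protein, had 32.9, 54.4 and 44.2 in CKO and 97.7, 110 and 70.4 in Ctrl, without overlap (log2 fold change -1.09, SE 0.28, limma adjusted p = 0.252), while a dimmer Arid4a probe had -0.16 (SE 0.50). Hdac7, a class II deacetylase, had 380, 318 and 404 in CKO and 448, 756 and 601 in Ctrl, also without overlap (log2 fold change -0.69, SE 0.26, limma adjusted p = 0.496).

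Of 13 SWI/SNF genes, which encode a second remodelling complex that Ikaros joins, 11 were measured, 1 was lower at the thresholds (4.34% of all genes) and the median was -0.19, or -0.043 from the mean of all kept probes. This was Arid1a, a DNA-binding subunit, with 29.9, 23.4 and 25.4 in CKO and 29.3, 48.2 and 49.3 in Ctrl, where CKO replicate 1 exceeded Ctrl replicate 1. Smarcd2, the brightest probe of the list, had a log2 fold change of -0.28. None of the 9 measured of 10 genes of the cereblon ubiquitin ligase, the complex that degrades Ikaros and Aiolos in human cells treated with thalidomide analogs, met the thresholds, and the median was 0.037. Nedd8 and Rbx1 had log2 fold changes of 0.048 and -0.037. Crbn itself, named here after its values were seen, had 26.3, 32.5 and 12.7 in CKO and 35.5, 30.1 and 22.8 in Ctrl, which overlapped. None of the SWI/SNF, Sin3 and CtBP or cereblon genes passed the adjusted p in limma, with or without the replicate block.

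Of 22 genes linked to Ikaros factors in T cells 18 were measured, and 3 rose and 1 fell at an adjusted p under 0.05 from limma, where 0.115% of all genes rose, 0.156% fell and 0.271% did either, and the median was -0.26. The gene that fell was Il10, an anti-inflammatory cytokine gene, with 128, 99.2 and 107 in CKO and 5935, 3203 and 5904 in Ctrl. Those that rose were Prdm1 (given above), Bcl2, a survival gene, with 153, 144 and 114 in CKO and 23.8, 33.1 and 16.5 in Ctrl, and Bcl6, a repressor gene of follicular helper cells, with 500, 482 and 306 in CKO and 97.9, 91.3 and 136 in Ctrl. Prdm1 is the gene by which the groups differ, and the paper cites Il10, Bcl6 and Prdm1 as known direct targets of Blimp1. It also reports these 3 as changed in its arrays, so the count cannot be read as a result about Ikaros-linked genes. The groups did not overlap in these 4 genes, as was so with CKO lower for 7.08% and with CKO higher for 5.95% of all genes, and their adjusted p-values from limma were 0.0010 for Il10, 0.0276 for Prdm1 and Bcl2 and 0.0483 for Bcl6. The other 14 genes, among them Il2 with a log2 fold change of -0.29 (SE 0.26) and intensities between 6980 and 13107, did not meet the thresholds, which 3.09% of all genes met as higher. With the replicate block 6 of the 18 met them (12% of all genes). The added genes, named after their values were seen, were Il17a, a Th17 cytokine gene, and Tbx21, which encodes the Th1 regulator T-bet. Il17a had 357, 464 and 417 in CKO and 93.6, 273 and 354 in Ctrl, also without overlap (log2 fold change 0.98, SE 0.47, limma adjusted p = 0.686). Tbx21 had 252, 316 and 375 in CKO and 348, 657 and 490 in Ctrl, which overlapped (log2 fold change -0.64, SE 0.30).

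Markers linked to thymus-derived Treg cells were looked at beside Helios. The sorted cells had arisen from naive Foxp3-GFP- donor cells after transfer, so these genes cannot be read as a measure of thymic origin here. Of 8 listed 6 were measured, 1 fell (0.156% of all genes) and 2 were lower at the thresholds (4.34%), none was higher, and the median was -0.89, at -1.57, -0.67 and -0.63 in the pairs of replicates 1, 2 and 3. With no filter on dim probes the median was -0.55. With the replicate block 3 of the 6 met the thresholds (12% of all genes), and the third was Swap70, named after its values were seen, with 40.9, 104 and 29.7 in CKO and 190, 139 and 62.6 in Ctrl, which overlapped (log2 fold change -1.24, SE 0.55, limma adjusted p = 0.636). Gpr83, a receptor gene typical of Treg cells, fell, with 12.2, 16.2 and 31.1 in CKO and 157, 177 and 131 in Ctrl (log2 fold change -3.07, SE 0.36, limma adjusted p = 0.0276). All CKO values of Gpr83 were above background, and the groups did not overlap, as was so with CKO lower for 7.08% of all genes. Sema4a, a semaphorin that keeps Treg cells stable through neuropilin, had 48.5, 47.3 and 66.6 in CKO and 176, 89.5 and 131 in Ctrl, again without overlap (log2 fold change -1.25, SE 0.30, limma adjusted p = 0.216). The paper says that some studies, but not all, link neuropilin-1 (Nrp1) to thymus-derived Treg cells. Nrp1 went the other way in its mean, with 265, 546 and 278 in CKO and 296, 412 and 191 in Ctrl, and the groups overlapped (log2 fold change 0.26, SE 0.39). Its CKO value was highest in replicate 2, as for Helios.

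**Figure D4:**
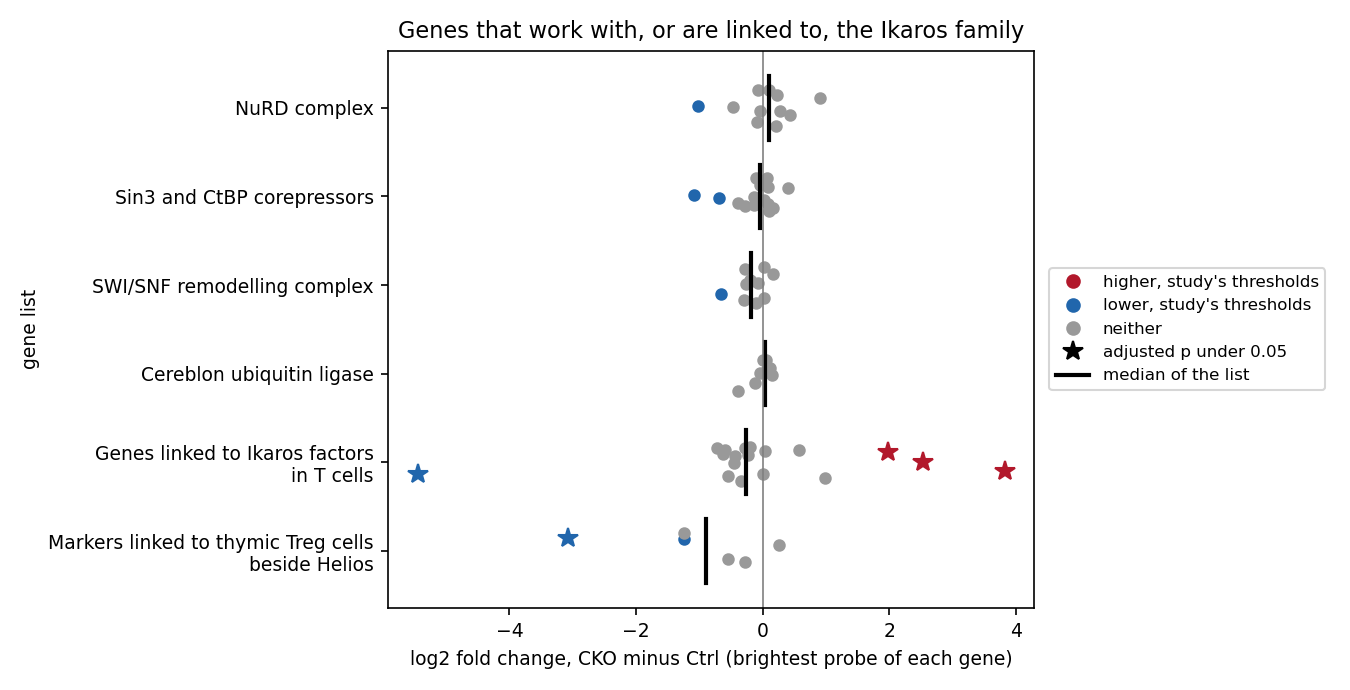
Log2 fold change, CKO minus Ctrl, of each measured gene of 6 lists around the Ikaros family, with black bars at the list medians, colours for genes that met the study's thresholds and stars for adjusted p-values under 0.05 from limma. The complexes lie around 0 with medians of -0.19 to 0.10, and the markers linked to thymic Treg cells have a median of -0.89.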

How the data were processed

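RNA of sorted pTreg cells was measured on 3 CKO and 3 Ctrl arrays, grouped by the genotype in the labels. The Teff arrays are not analysed here. The authors deposited linear intensity values exported from Genome Studio, background subtracted and quantile normalized, with 35.4% to 36.0% of values below 0 per array. Medians of the deposited values were 2.84 on the arrays of slide 1 and 2.64 to 2.65 on those of slide 2. The 6 arrays were therefore quantile normalized together. An array's background level was the 95th percentile of the 1504 probes for olfactory and vomeronasal receptors, lower values were set to that level, and values were then log2 transformed. Detection p-values were not used here. The number of arrays limits the precision.

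Probes above background on at least 2 arrays were kept (17294), and the brightest probe stood for a gene. Symbols came from the platform annotation, checked for 34807 probes by gene identifier against RefSeq (GRCm38.p6), which also gave chromosomes and start windows. Array files name no build. The comparison used lmFit and eBayes of limma 3.58.1 (R 4.3.3) with no block and Benjamini-Hochberg adjustment over 9593 genes, and member probes in a second fit over all kept probes. The steps were tested on simulated data.

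CKO and Ctrl arrays of a replicate number were treated as pairs, from the shared slide of replicate 1 and the shared day in the labels of replicates 2 and 3. Their deviations from the group means correlated at 0.51, 0.494 and 0.557 over genes. The paper calls the 3 replicates of each group biological, while the labels do not say that they came from separate mice. The p-values measure the spread between these samples, which may be partly technical.

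Named genes were all members with every probe, Prdm1 and Foxp3, genes of each list at an adjusted p under 0.05, then up to 3 at the study's thresholds, then the brightest until 2, and the 3 genes most like each member. Members and lists were chosen with earlier results of these data known. Alternatives were other normalization, floor, filter, probe choice, blocks, variance model and leaving out arrays.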

Additional observations from a re-analysis of the deposited data

How the results depend on the processing

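Ikzf2 kept its direction under all alternatives, between -1.45 and -1.14 on the log2 scale, and met the study's thresholds in each except without both arrays of replicate 1. Leaving out 1 array at a time gave -1.92 to -1.20, met the thresholds in all 6 and gave adjusted p-values of 0.139 to 0.597 from limma. Ikzf3 passed the adjusted p only with the replicate block (log2 fold change -1.15, adjusted p = 0.0346), and the block changed the call of no other member (0.0543 for Ikzf2). A slide block gave adjusted p-values of 0.301 for Ikzf2 and 0.128 for Ikzf3 in limma. Leaving out 1 array gave -1.51 to -0.84 for Ikzf3 (adjusted p 0.411 to 0.722). Ikzf1 turned its sign on leaving out single arrays (-0.13 to 0.11), as did its probes ILMN_1255419 (-0.15 to 0.26) and ILMN_3051466 (-0.35 to 0.080) and the Ikzf3 probe ILMN_1216717 (-0.24 to 0.42, and -0.058 with an offset in place of a floor). Ikzf5 met the thresholds only without both arrays of replicate 1.

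The 26 genes at an adjusted p under 0.05 became 183 with the replicate block, 16 with the slide as a block, 49 with an offset, 150 with no filter on dim probes, 50 with trend and robust in eBayes, 1 to 10 without 1 array, and 0 without both arrays of replicate 1, where 611 genes had an unadjusted p under 0.05 in limma. The 712 genes at the thresholds became 1154 with the replicate block and 460 with an offset. Of the list genes named as called, Il10 kept its call without any 1 array, Gpr83 only without CKO replicate 3 (limma adjusted p between 0.0683 and 0.113 without each other array), Bcl2 only without Ctrl replicate 2 (0.0683 to 0.530 otherwise), and Prdm1 (0.0523 to 0.143) and Bcl6 (0.0858 to 0.223) lost theirs without any 1 array. Without 1 array the log2 fold change was 3.38 to 4.11 for Prdm1, 1.86 to 2.20 for Bcl6 and -3.44 to -2.80 for Gpr83. That of Bcl2 was 1.48 without CKO replicate 1 (adjusted p = 0.530 from limma) and 1.56 without both arrays of replicate 1, against 2.53 with all arrays. The brightest probe was picked anew in each setting, and the intensities of the Bcl2 probe given above do not yield values this low. Another Bcl2 probe thus stood for the gene there (other probes had 0.99 to 2.47 with all arrays), so these values do not show dependence on an array. Without both arrays of replicate 1 all 5 were lost. With the slide as a block Bcl2 (adjusted p = 0.0545) and Bcl6 (0.0824) were lost, and Bcl6 also with the deposited values (0.0508) or the mean of its probes (0.0546). List medians turned to -0.11 for NuRD and -0.16 for cereblon without Ctrl replicate 1, and reached -0.46 for the Ikaros-linked genes without CKO replicate 2, -0.080 for SWI/SNF without Ctrl replicate 3 and -1.23 for thymic Treg markers without Ctrl replicate 3. The cause of these shifts was not tested, beyond the change of the Bcl2 probe and the fewer arrays or genes that some alternatives hold by construction.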
